A study of Homo sapiens with 8 samples.

Results

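This account follows 10 human genes of the feedback on TNF-alpha signalling that works through ubiquitin: *TNFAIP3*, *TNIP1*, *TNIP2*, *CYLD*, *OTULIN*, *BIRC2*, *BIRC3*, *TRAF1*, *TRAF2* and *TRAF3*. Members were all probe sets that the platform's annotation assigns to one of these genes. That gave 30 probe sets for 8 genes, among 49395 probe sets and 18132 genes in all, and *BIRC3* and *TRAF2* had none there and were not analysed here. RNA of KBM7, a chronic myeloid leukaemia line with a near-haploid genome, was measured on 8 one-colour Affymetrix arrays with probes near the 3' end of each transcript. The TNF-alpha experiment held the TNFRSF1A gene-trap mutant with TNF-alpha, the unstimulated TNFRSF1A mutant, WT cells with TNF-alpha and unstimulated WT replicate 2. The IFN-gamma experiment held the JAK2 gene-trap mutant with IFN-gamma, the unstimulated JAK2 mutant, WT cells with IFN-gamma and unstimulated WT replicate 1. TNF-alpha was given at 10 ng/ml and IFN-gamma at 100 ng/ml, each for 6 hours. Every condition other than unstimulated WT had 1 array, and the labels tell neither where the traps lie nor from how many clones or cultures the RNA came.

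When TNF-alpha binds its receptor TNFR1, the adaptor TRAF2 brings in the cellular inhibitors of apoptosis, the ligases encoded by *BIRC2* and *BIRC3*, which attach ubiquitin chains to the receptor complex, and these chains carry the signal to NF-kappaB. A20, the protein of *TNFAIP3*, edits such chains and is itself an NF-kappaB target, so that the pathway limits its own output. The ABIN proteins of *TNIP1* and *TNIP2* bind A20 and ubiquitin, CYLD and OTULIN are deubiquitinases that remove chains, and TRAF3 with TRAF2 and the BIRC ligases keeps the kinase of the alternative NF-kappaB branch at a low level.

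The 250 bases before each RefSeq start site (build GRCh38.p14) were searched on both strands for GGGNNTTTCC, a common form of the NF-kappaB motif, because the results turn on genes that responded to TNF-alpha unequally. All 10 genes had at least 1 start site in the table, 16 in all. *TNFAIP3* held 2 matches and *TNIP1*, *CYLD* and *TRAF3* held 1 each before 1 of their start sites, while *TNIP2*, *OTULIN*, *BIRC2* and *TRAF1* had none in these windows. Of the 2 genes with no probe set, *BIRC3* held 1 match, beginning at -199, and *TRAF2* none. Of 35116 such windows, 1.73% held a match and 0.0313% held 2 or more. The stretches around the matches of the 4 measured genes are given 5' to 3' on the gene's strand, with the matches in capitals. They lie at chr6:137867172-137867233 (plus strand) for *TNFAIP3*, chr5:151081047-151081096 (minus strand) for *TNIP1*, chr16:50741877-50741926 (plus strand) for *CYLD* and chr14:102777396-102777445 (plus strand) for *TRAF3*. The first 2 fall inside the annotated span of their own gene and the other 2 outside it. The 2 matches of *TNFAIP3*, which begin at -67 and -55 from the start site, do not overlap. A match is a run of letters and no evidence of binding.
TNFAIP3: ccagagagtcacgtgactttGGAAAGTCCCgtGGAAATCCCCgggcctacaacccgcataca
TNIP1: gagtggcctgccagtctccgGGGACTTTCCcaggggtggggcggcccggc
CYLD: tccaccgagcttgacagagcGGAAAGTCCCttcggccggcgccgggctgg
TRAF3: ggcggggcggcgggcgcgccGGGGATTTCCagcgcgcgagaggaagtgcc

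The deposited intensities were taken to log2, and a difference between 2 arrays of at least 2-fold (1 on the log2 scale) was counted as raised or lowered, with no p-value. Over the 11529 genes compared, whose highest log2 value was at least 6, the SD of the difference between both unstimulated WT arrays was 0.38, called the spread below. This may be technical, and as the 2 arrays belong to different experiments it may also hold differences between the experiments. No other condition had more than 1 array, so it is the only measure from replicates. Most responses below are differences within 1 experiment, whose error was not measured. Median intensities of the arrays lay between 63.9 and 66.9. The brightest JAK2 probe set stood at 5.32 and 5.08 in the JAK2 mutant with and without IFN-gamma, against 6.81 and 6.28 on the matching WT arrays. The mutant values lay in the background range, below the upper quartile of the background probe sets (5.76 to 6.04 over the arrays). The brightest TNFRSF1A probe set stood at 6.55 and 6.56 in the TNFRSF1A mutant with and without TNF-alpha, against 9.23 and 9.36 in the WT arrays of that experiment. Among myeloid markers, PTPRC, KIT and LYZ were above the background range on all 8 arrays while SPI1 lay in it on all 8 and MPO (5.82 to 7.43) on 1. Of the other cell types' markers, the T cell gene CD3D (8.71 to 10.03) and the endothelial and leukocyte gene PECAM1 (7.67 to 8.80) were above it, while CD3E, MS4A1, EPCAM, KRT19, COL1A1, COL1A2 and CDH5 lay in it on all 8.

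TNF-alpha raised *TNFAIP3* in WT cells and left it within the spread in cells with the TNFRSF1A trap. The brightest *TNFAIP3* probe set had a log2 level of 10.13 in the TNFRSF1A mutant with TNF-alpha, 10.02 in the unstimulated mutant, 11.96 in WT with TNF-alpha and 9.60 in WT replicate 2. As intensities these are 1123, 1036, 3978 and 774. WT with TNF-alpha stood apart as the highest of the 8 arrays in both *TNFAIP3* probe sets. The response was a log2 difference of 0.12 in the mutant and 2.36, or 5.14-fold, in WT, and the other probe set gave 0.16 in the mutant and 2.30 in WT. *TNFAIP3* ranked 6 from the top among the 11529 genes in WT. It was the 1 gene of the 8 that TNF-alpha raised 2-fold in WT, where 0.312% of all genes compared were raised, and 0 of the 8 were lowered, where 0.00867% of all genes were. In the mutant 0 of the 8 were raised or lowered, as were 0.0% of all genes. Between the arrays with TNF-alpha, *TNFAIP3* differed by -1.82 (mutant minus WT, log2), and it was the 1 gene of the 8 lowered there, against 0.919% of all genes.

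**Figure D1:**
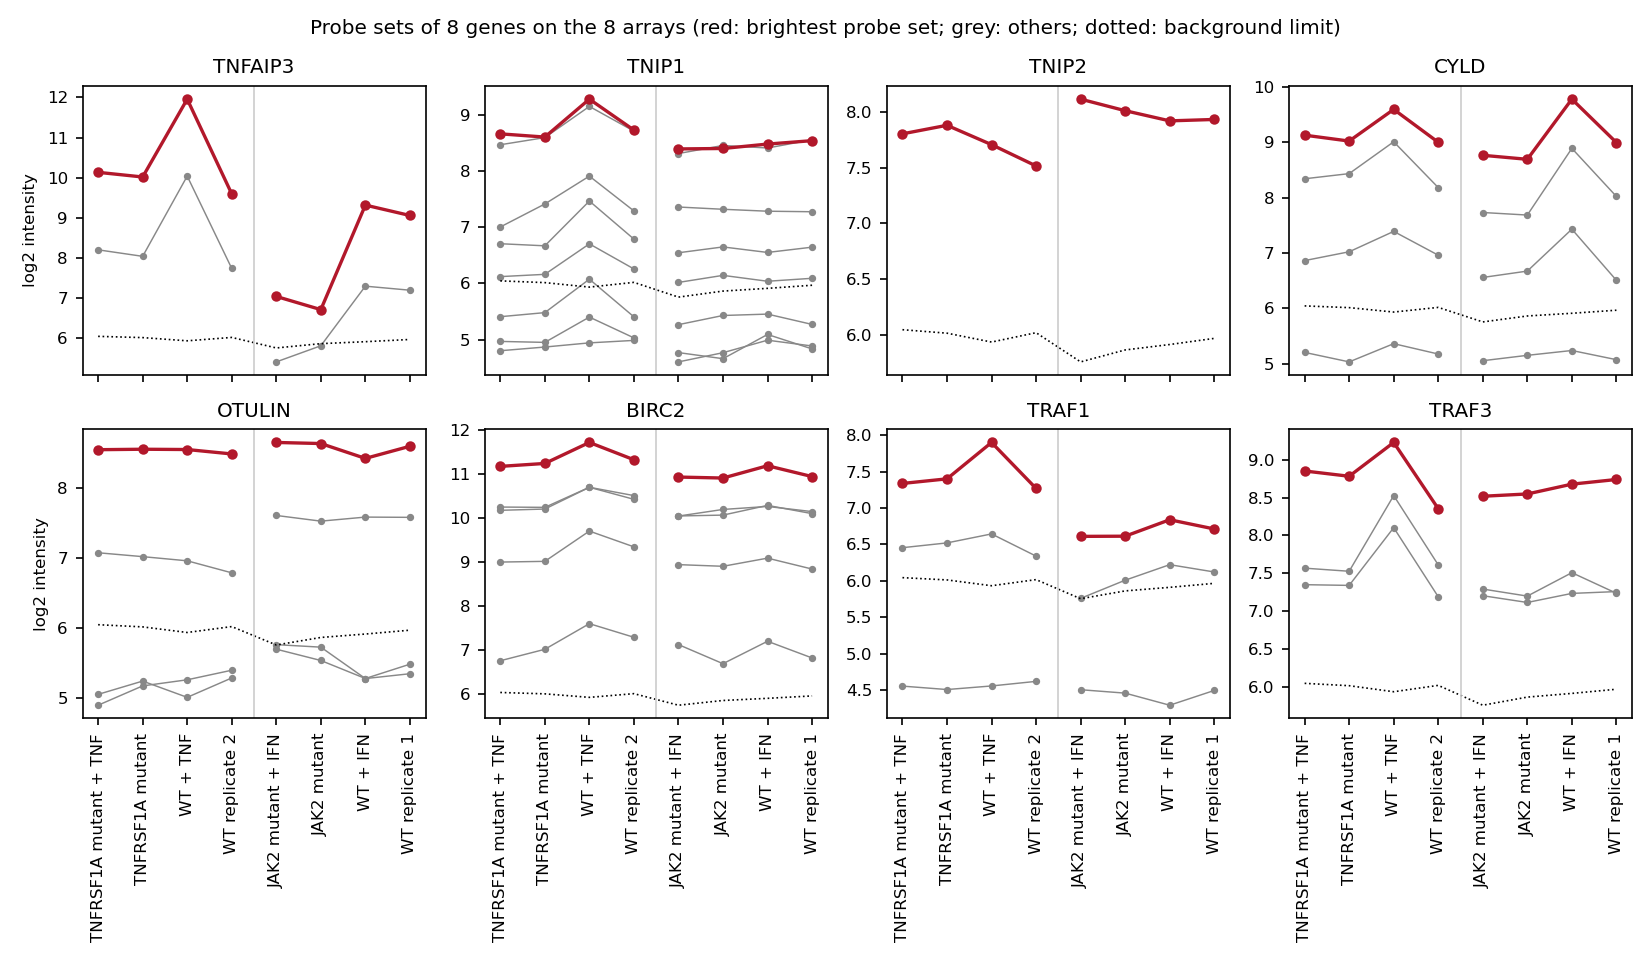
Log2 intensity of every probe set of the 8 genes (red, the brightest of each gene; grey, the others) on the 8 arrays, with the TNF-alpha experiment left of the grey line and the IFN-gamma experiment right of it; the dotted line is the background limit of each array and the vertical axes differ between genes. *TNFAIP3* peaks at 11.96 in WT with TNF-alpha and is lowest, at 6.71, in the unstimulated JAK2 mutant.

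The A20 partners had smaller values with TNF-alpha. *TNIP1*, whose product ABIN1 links A20 to ubiquitinated targets, had 8.66 in the TNFRSF1A mutant with TNF-alpha and 8.61 in the unstimulated mutant, against 9.28 in WT with TNF-alpha and 8.73 in WT replicate 2. Its response was thus 0.06 in the mutant and 0.55 in WT, beyond the spread of 0.38 but short of 2-fold. Of its 8 probe sets, 7 were highest in WT with TNF-alpha. Over the 5 *TNIP1* probe sets that stayed above the background range on all arrays, the WT response ran between 0.44 and 0.68 and the mutant response between -0.41 and 0.06. *TNIP2*, which encodes the related ABIN2, had 7.80 and 7.88 in the mutant with and without TNF-alpha, against 7.71 and 7.52 in WT with TNF-alpha and WT replicate 2. Its single probe set gave responses of -0.08 in the mutant and 0.19 in WT, both within the spread.

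The deubiquitinase genes differed from each other. *CYLD*, the tumour suppressor gene of familial cylindromatosis, had 9.13 and 9.02 in the TNFRSF1A mutant with and without TNF-alpha, against 9.59 and 9.00 in WT with TNF-alpha and WT replicate 2. That is a response of 0.11 in the mutant and 0.59 in WT. The 3 *CYLD* probe sets above the background range gave 0.43 to 0.83 in WT and -0.16 to 0.11 in the mutant. *OTULIN*, whose product cuts linear ubiquitin chains, was flat over all 8 arrays, between 8.41 and 8.64 in its brightest probe set. Its response was -0.01 in the mutant and 0.06 in WT.

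Among the adaptors and ligases, *TRAF3* came nearest to 2-fold. Its brightest probe set had 8.85 and 8.78 in the TNFRSF1A mutant with and without TNF-alpha, against 9.23 and 8.35 in WT with TNF-alpha and WT replicate 2. All 3 *TRAF3* probe sets were highest of the 8 arrays in WT with TNF-alpha, with WT responses of 0.88 to 0.92 and mutant responses of 0.01 to 0.07. In the brightest probe set WT replicate 2 differed from WT replicate 1 by -0.39, and against replicate 1 the WT response was 0.49. Over all 3 probe sets the WT response against replicate 1 ran from 0.49 to 1.29, with 1 past 2-fold. *TRAF1*, an adaptor that carries no ligase domain and is a known NF-kappaB target, had 7.34 and 7.40 in the mutant with and without TNF-alpha, against 7.90 and 7.27 in WT. Its response was -0.06 in the mutant and 0.63 in WT, and its second probe set gave -0.07 in the mutant and 0.30 in WT, while the third lay in the background range on all arrays. *TRAF1* was 0.56 higher in WT replicate 2 than in replicate 1, so that its WT response was 1.19 against replicate 1, which is past 2-fold. With that control 2 of the 8 genes were raised, against 1.4% of all genes. *BIRC2*, the gene of the ligase cIAP1, had 11.17 and 11.24 in the mutant, against 11.72 and 11.32 in WT with TNF-alpha and WT replicate 2. All 5 *BIRC2* probe sets were highest in WT with TNF-alpha, with WT responses of 0.19 to 0.39, around the spread or below it. Against WT replicate 1 the *BIRC2* responses in WT were 0.55 to 0.86, with 0.77 in the brightest probe set.

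**Figure D2:**
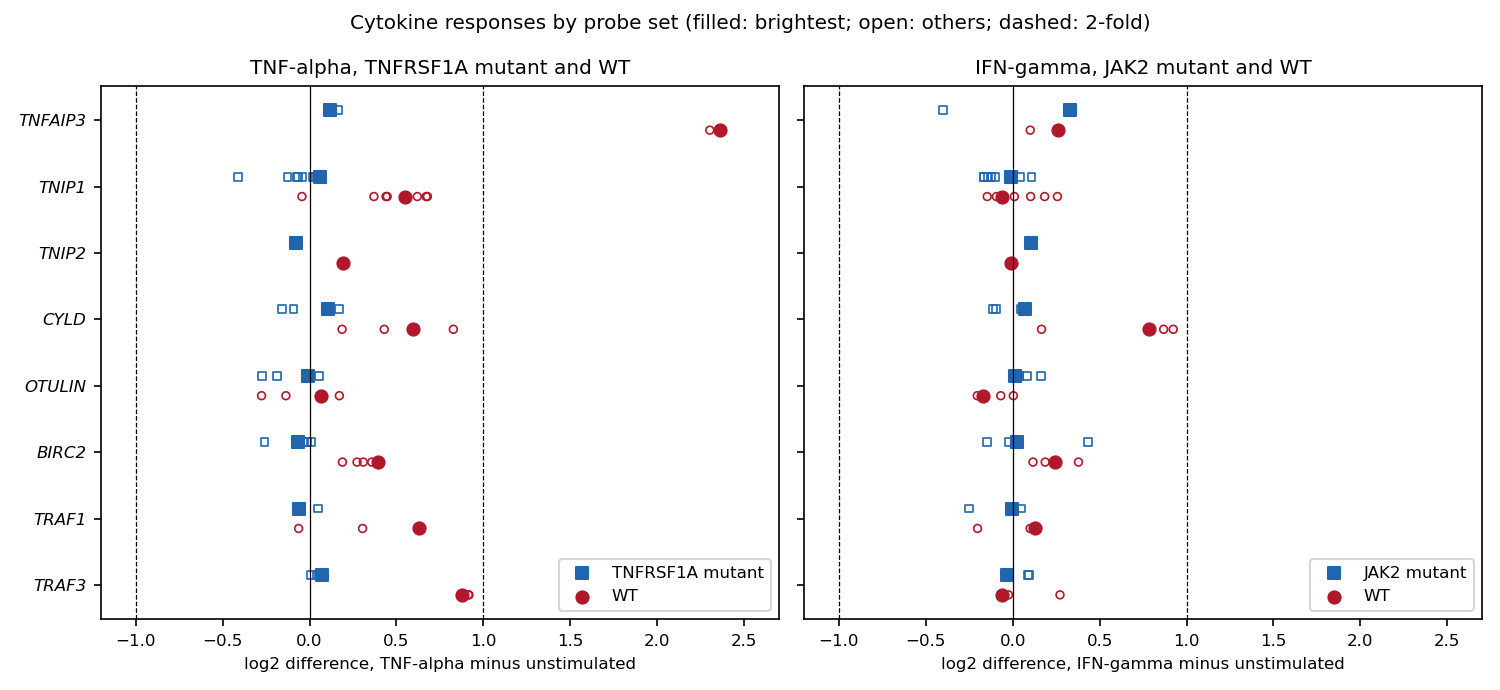
Log2 difference between the stimulated and the unstimulated array for each probe set (filled, the brightest of its gene; open, the others), TNF-alpha on the left with the TNFRSF1A mutant (blue squares) and WT (red circles), IFN-gamma on the right with the JAK2 mutant and WT; dashed lines mark 2-fold. *TNFAIP3* alone passes 2-fold, with 2.36 and 2.30 in WT with TNF-alpha, and *CYLD* has the highest WT values with IFN-gamma, up to 0.92.

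As a group, all 8 genes had a value above 0 with TNF-alpha in WT, with a median of 0.57, and 4 of 8 did so in the TNFRSF1A mutant, with a median of 0.03. The medians of all genes compared were 0.01 in WT and -0.02 in the mutant, and 5991 of the 11529 genes had a value above 0 in WT. Against WT replicate 1, 6 of the 8 genes were above 0 in WT, with *TNIP2* at -0.23 and *OTULIN* at -0.05. At a threshold of 1.5-fold, 4 of the 8 were raised in WT (*TNFAIP3*, *CYLD*, *TRAF1* and *TRAF3*), where 1.09% of all genes were, and 0 in the mutant, where 0.0347% of all genes were raised. By their brightest probe sets, 5 of the 8 genes were highest of the 8 arrays in WT with TNF-alpha, as were 11.4% of all genes compared. The members and thresholds were chosen with earlier results of these data known. The member counts for TNF-alpha beside the shares of all genes are thus a description and no evidence of an excess. The 4 measured genes with a motif match before a start site (*TNFAIP3*, *TRAF3*, *CYLD* and *TNIP1*) had WT responses of 2.36, 0.88, 0.59 and 0.55. The 4 without one (*TRAF1*, *BIRC2*, *TNIP2* and *OTULIN*) had 0.63, 0.39, 0.19 and 0.06, so the 2 groups overlap through *TRAF1*. Against WT replicate 1 the genes with a match, in the same order, had 2.90, 0.49, 0.60 and 0.74. The genes without one had 1.19, 0.77, -0.23 and -0.05, so *TRAF1* and *BIRC2* then lay above all genes with a match but *TNFAIP3*. Of the 240 genes compared with a match in any of their windows, 8 (3.33%) were raised 2-fold by TNF-alpha in WT, and of the 9224 with windows but no match 22 (0.239%) were. The medians of these groups were 0.06 and 0.01. *TNFAIP3* is itself among the 8 raised genes with a match. Whether the motif had a part in any of these responses was not tested.

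**Figure D3:**
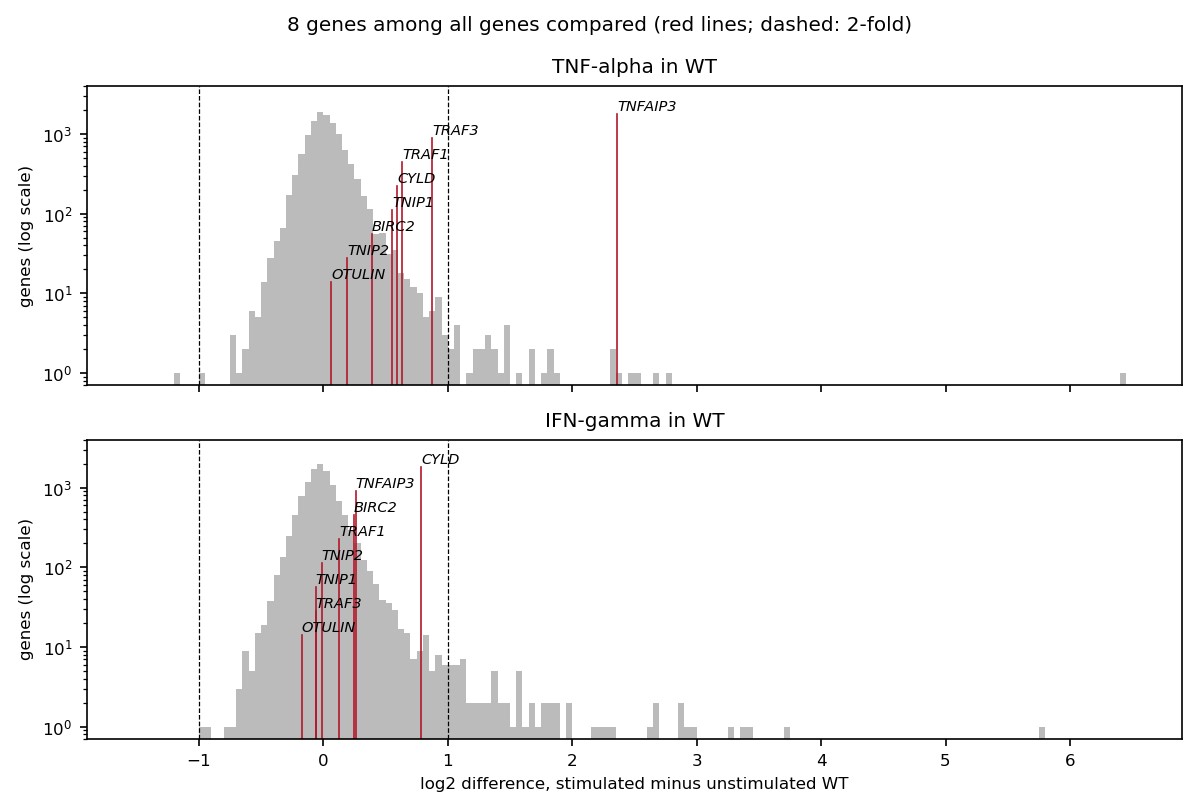
Number of genes (log scale) by log2 difference between stimulated and unstimulated WT cells over the 11529 genes compared, with TNF-alpha above and IFN-gamma below; red lines mark the 8 genes and dashed lines 2-fold. With TNF-alpha *TNFAIP3* stands at 2.36 in the far right tail and *OTULIN* at 0.06 in the middle, while with IFN-gamma *CYLD*, at 0.78, is the member farthest to the right.

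Of the 8 genes, *CYLD* had the highest value with IFN-gamma in WT. The brightest *CYLD* probe set had 8.76 in the JAK2 mutant with IFN-gamma, 8.69 in the unstimulated mutant, 9.78 in IFN-gamma-treated WT cells and 8.99 in WT replicate 1. In this probe set IFN-gamma-treated WT cells were the highest of the 8 arrays, ahead of TNF-alpha-treated ones at 9.59. This order depended on the probe set. Of the 4 *CYLD* probe sets, 2 peaked on the first of these arrays and 2 on the other. The next brightest read 8.89 after IFN-gamma, below its 9.01 after TNF-alpha. The 2 arrays also belong to different experiments. The response of the brightest probe set was 0.07 in the mutant and 0.78 in WT, and 0.78 also when WT replicate 2 was the control. Over the 3 *CYLD* probe sets above the background range it was -0.11 to 0.07 in the mutant and 0.78 to 0.92 in WT, just short of 2-fold. With WT replicate 2 as the control these 3 ran from 0.47 to 0.78 in WT. Of the 8 genes, 0 were raised or lowered 2-fold with IFN-gamma in WT, where 0.607% of all genes were raised and 0.0% lowered. At 1.5-fold *CYLD* was the 1 gene of the 8 raised, against 1.38% of all genes. In the JAK2 mutant 0 of the 8 passed 2-fold, as did 0.0% of all genes in either direction. The median of the 8 was 0.02 in the JAK2 mutant and 0.06 in WT.

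*TNFAIP3* did not pass 2-fold with IFN-gamma in either probe set. Its level was 7.04 and 6.71 in the JAK2 mutant with and without IFN-gamma, against 9.32 and 9.06 for WT. That is a response of 0.33 in the mutant and 0.26 in WT. With WT replicate 2 as the control the WT value was -0.28. The second probe set gave -0.40 in the mutant, within the background range, and 0.10 in WT, or -0.44 in WT against WT replicate 2. *TNIP1*, *TNIP2*, *OTULIN* and *TRAF3* had WT values of -0.06, -0.01, -0.17 and -0.06 with IFN-gamma. With WT replicate 2 as the control these were -0.25, 0.41, -0.06 and 0.33. *BIRC2* and *TRAF1* had 0.25 and 0.13 in WT, and -0.14 and -0.43 against WT replicate 2. As for *TNFAIP3*, the sign of *TNIP2*, *TRAF3*, *BIRC2* and *TRAF1* thus depended on the control.

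In the unstimulated JAK2 mutant the 1 gene of the 8 past 2-fold was *TNFAIP3*, a difference that was part of the choice of these genes and is given as a description. Its brightest probe set had 6.71 in the JAK2 mutant, against 9.06 in WT replicate 1 and 9.60 in WT replicate 2, or 105 against 533 and 774 as intensities. The mutant was lower by both controls, with log2 differences of -2.35 and -2.88, 5.09-fold and 7.38-fold in size. The second probe set fell into the background range in the mutant, so it gives a lower bound only, at least 1.33 and at least 1.87 on the log2 scale. WT replicate 2 was 0.54 above WT replicate 1. With IFN-gamma the JAK2 mutant had 7.04 against 9.32 in WT, a difference of -2.28, which follows from the baseline and both IFN-gamma responses and is no independent value. Between the arrays with IFN-gamma 2 of the 8 genes were lowered, *TNFAIP3* and, at -1.01, *CYLD*, against 2.67% of all genes. Of the 4 *CYLD* probe sets 2 passed 2-fold there, and the 3 above the background range ran from -1.16 to -0.87. In the brightest, -0.30 of the *CYLD* gap was present between the unstimulated arrays, where these 3 ran from -0.34 to 0.17. Both JAK2 mutant arrays lay below the 6 other arrays in both *TNFAIP3* probe sets. By their brightest probe sets this held for 5 of the 8 genes (*TNFAIP3*, *TNIP1*, *CYLD*, *BIRC2* and *TRAF1*) and for 18.3% of all genes compared. Not all their probe sets did so: 3 of 8 for *TNIP1*, 2 of 4 for *CYLD*, 2 of 5 for *BIRC2* and 2 of 3 for *TRAF1*. In the brightest *BIRC2* probe set the JAK2 mutant with IFN-gamma had 10.93 and WT replicate 1 had 10.94, a gap far below the spread.

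The other 7 genes stayed within 2-fold in the unstimulated JAK2 mutant. *TNFAIP3* was thus 1 of 8 lowered against either control, where 1.91% of all genes were lowered against WT replicate 1 and 3.65% against replicate 2. Because this difference was part of the choice of the genes, the count is no evidence of an excess over these shares. No gene of the 8 was raised, where 0.226% and 2.9% of all genes were. Against replicate 1 the others ran from -0.30 for *CYLD* to 0.08 for *TNIP2*. Against replicate 2 they ran from -0.66 for *TRAF1* to 0.50 for *TNIP2*. Of 8 TNF-alpha response genes on a separate list, drawn up with these responses known, 8 had values below 0 in the JAK2 mutant against replicate 1 and 7 against replicate 2, with medians of -0.41 and -0.41. Of all 11529 genes, 5181 and 5131 were below 0 in these comparisons, with medians of 0.03 and 0.05. IER3, a survival gene, was lowered against both, with differences of -1.91 and -1.22. NFKBIA, the gene of an NF-kappaB inhibitor, stood at 8.26 in the JAK2 mutant, against 9.05 in WT replicate 1 and 9.25 in WT replicate 2. The actin 3' to 5' signal ratio, a reading of RNA integrity, was 6.47 and 5.74 in the JAK2 mutant with and without IFN-gamma, against 4.81 and 4.41 on the matching WT arrays and 3.27 on WT replicate 2. The ratio was highest on the 2 JAK2 mutant arrays. In the TNF-alpha experiment it was 5.53 and 4.51 in the TNFRSF1A mutant with and without TNF-alpha, and 4.81 in WT with TNF-alpha. The GAPDH ratio of the same kind ran from 1.09 on WT replicate 2 to 1.27 on the unstimulated JAK2 mutant. The part of RNA integrity in the *TNFAIP3* differences was not tested.

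In the unstimulated TNFRSF1A mutant 0 of the 8 genes passed 2-fold. Against WT replicate 2, 0.373% of all genes were raised and 0.607% lowered, and against replicate 1 0.841% and 0.859%. *TNFAIP3* had 10.02 in the TNFRSF1A mutant, against 9.06 in WT replicate 1 and 9.60 in WT replicate 2. These are differences of 0.96 and 0.42, and the second probe set gave 0.84 and 0.30. Unstimulated *TNFAIP3* levels were therefore ordered with the TNFRSF1A mutant highest, WT replicate 2 next, then WT replicate 1 and the JAK2 mutant last. The first step is 0.42 and the next 0.54, both little above the spread, and the step down to the JAK2 mutant is 2.35. *TRAF1* had 0.69 against WT replicate 1 and 0.13 against replicate 2.

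**Figure D4:**
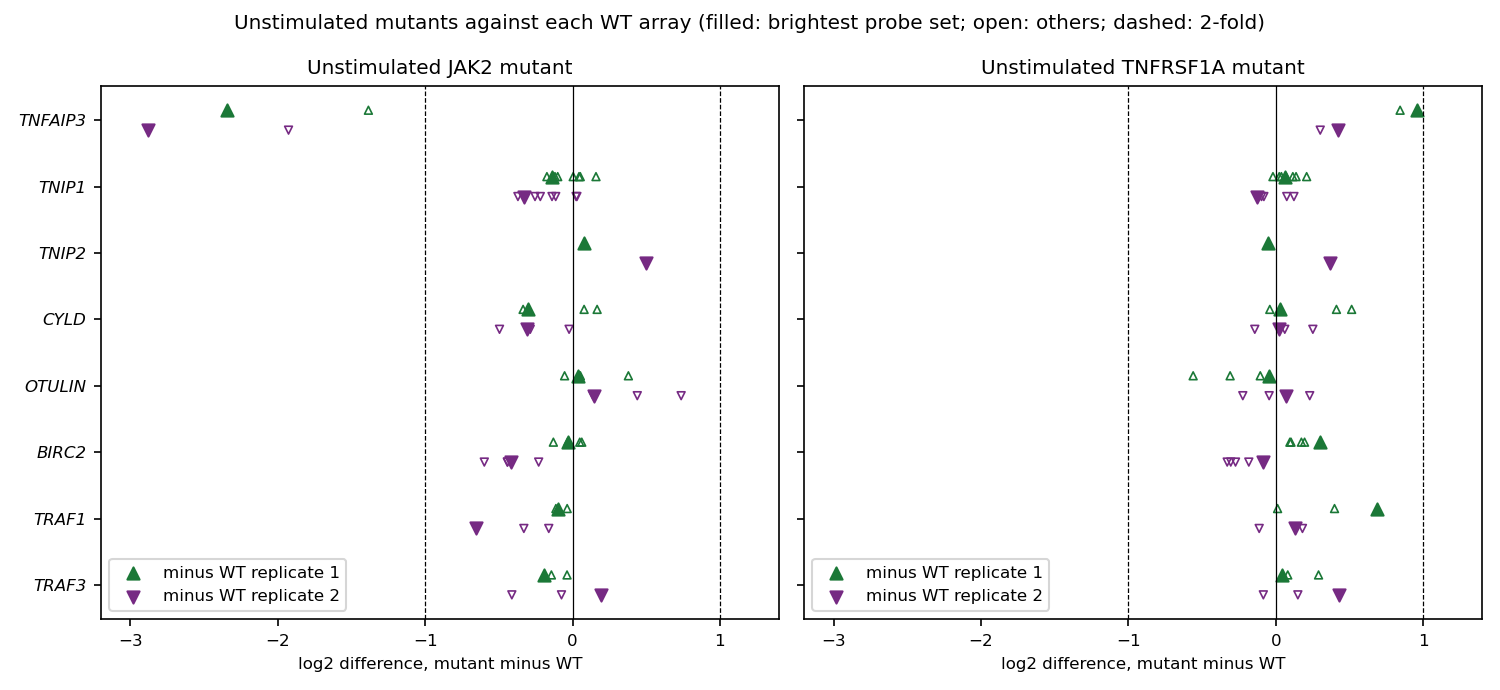
Log2 difference of the unstimulated JAK2 mutant (left) and TNFRSF1A mutant (right) minus WT replicate 1 (green) and minus WT replicate 2 (purple) for each probe set, filled for the brightest of its gene and open for the others; dashed lines mark 2-fold. *TNFAIP3* lies at -2.35 and -2.88 in the JAK2 mutant, past 2-fold in both probe sets, and every other gene lies within 2-fold.

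Of a wider list of 30 genes of the same machinery, 25 could be compared. With TNF-alpha in WT, 0 of them passed 2-fold, where 0.312% of all genes were raised. Their median was 0.09 and that of all genes was 0.01. The highest values were those of the adaptor genes *TRAF4*, at 0.78, and *TANK*, at 0.72, followed by the deubiquitinase gene *ZRANB1*, at 0.38. In the TNFRSF1A mutant *TRAF4* had 0.05, *TANK* 0.07 and *ZRANB1* -0.08. Against WT replicate 1 *TANK* had 1.15 in WT, past 2-fold. With IFN-gamma in WT, *TRAFD1*, which encodes a TRAF-type zinc finger protein that dampens innate signalling, was the 1 gene of the 25 raised, against 0.607% of all genes, by 1.03 (0.78 against WT replicate 2), and stood at 8.84 in the JAK2 mutant both with and without IFN-gamma. *RBCK1*, a subunit gene of the linear ubiquitin ligase, had -0.05 in the mutant and 0.58 in WT, and *TANK* had 0.35 in the mutant and 0.47 in WT. Against WT replicate 2 the WT values were lower, at 0.22 for *RBCK1* and 0.04 for *TANK*. In the unstimulated JAK2 mutant against WT replicate 1, 0 of the 25 passed 2-fold, where 0.226% of all genes were raised and 1.91% lowered. The largest differences there were those of *IKBKG*, *TAB2* and *UBE2N*, 0.42, -0.40 and 0.37. *IKBKG* stood at 6.01 in WT replicate 1, just above that array's background limit of 5.97. In the unstimulated TNFRSF1A mutant against WT replicate 2, 0 passed 2-fold, where 0.373% of all genes were raised and 0.607% lowered, with *BIRC6* at 0.37, *TAB2* at -0.28 and *OTUD7B* at 0.24.

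The genes most like *TNFAIP3* over the 8 arrays were SLC16A9, PDGFA, CCNG2, PHACTR1 and PPIF, with Pearson r of 0.99, 0.98, 0.97, 0.97 and 0.97 among 1473 genes whose log2 values spanned at least 1. The points are the 8 arrays, of which the 2 of the JAK2 mutant are low and WT with TNF-alpha is high for all 5 genes. PDGFA, a growth factor gene, stood at 8.29 in the TNFRSF1A mutant both with and without TNF-alpha, had a response of 1.25 in WT, and differed by -1.29 in the unstimulated JAK2 mutant against WT replicate 1. PPIF, the gene of mitochondrial cyclophilin D, had responses of 0.15 in the TNFRSF1A mutant and 1.46 in WT, and differed by -1.18 in the JAK2 mutant. The changes of SLC16A9, CCNG2 and PHACTR1 were smaller, with WT responses of 0.65, 0.37 and 0.42. Their differences in the JAK2 mutant against WT replicate 1 were -0.50, -0.58 and -0.92. Of the members with such a span, *TRAF1* had r of 0.91 and *CYLD* of 0.69.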

How the data were processed

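The authors deposited 1 linear intensity per probe set and array, and the submitters' processing notes name RMA and Affymetrix Expression Console 1.1. RMA commonly makes the arrays' distributions equal, so a shift of most genes one way would not be seen. The step back to a linear scale was inferred from the values, and log2 of the deposited intensity was taken here without a pseudocount. Symbols came from the platform's annotation, updated by gene identifier against RefSeq. A gene's value was its brightest single-gene probe set, and each difference is between 2 arrays, each response against its own experiment's control. Where 1 of 2 values lay in the background range, it was set to that array's limit and the difference given as at least so much. The members, lists and thresholds were chosen with earlier results of these data known. The named genes were all members, the targeted genes, any wider-list gene past 2-fold and the 3 largest of that list per comparison and the 5 nearest to *TNFAIP3* by Pearson r. PDGFA and PPIF were picked from those 5, IER3 and NFKBIA from the TNF-alpha response list, after their values were seen. Alternatives were other thresholds, level filters, gene summaries, controls, a further quantile normalization and a limma 3.58.1 fit of the 7 conditions over all genes, tested on simulated data. Python 3.11.15 and R 4.3.3 were used. Some genes of the lists were not analysed here.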

Additional observations from a re-analysis of the deposited data

How the results depend on the processing

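The 48 values of the 8 genes were recomputed under each alternative. Of 426 recomputed values, 405 moved by less than the spread of 0.38. Many of these could not move, because the level filters and the background limits left the brightest probe sets' values as they were. A change of WT control likewise left differences that do not use that control as they were. The 21 that moved further belonged to *TNFAIP3*, *TNIP2*, *BIRC2*, *TRAF1* and *TRAF3*. They came with a WT array left out, apart from *TNFAIP3* in the JAK2 mutant by the mean of probe sets. None of the 2 called values changed sign. With WT replicate 1 left out or WT replicate 2 left out, the members raised by TNF-alpha in WT were 1 to 2, those whose TNF-alpha response in the mutant was 2-fold from that in WT 1 to 2, and all genes raised by TNF-alpha 36 to 161, raised by IFN-gamma 70 to 191 and lowered in the JAK2 mutant 220 to 421. The member gained without replicate 2 was *TRAF1*. At 1.5-fold, 4 members passed with TNF-alpha in WT, 1 with IFN-gamma and 3 between the mutant and WT responses to TNF-alpha, while the counts over all genes were 126 raised by TNF-alpha, 159 raised by IFN-gamma and 495 lowered in the JAK2 mutant. At 3-fold these counts were 15, 28 and 97. The JAK2 count was 127 at a log2 level of 8 and 139 by the mean of probe sets, by which *TNFAIP3* had -1.87 there. The TNF-alpha count was 55 against the mean of both WT arrays. The limma fit, with 1 residual degree of freedom, called 0 members in any comparison at an adjusted p of 0.05, with 5 under an unadjusted p of 0.05 for TNF-alpha in WT, 1 each for IFN-gamma in WT, the JAK2 mutant and the TNF-alpha difference of responses. Of all genes it called 1 raised by TNF-alpha, 1 raised by IFN-gamma and 19 lowered in the JAK2 mutant. No paired analysis was possible because no 2 groups share 2 replicate numbers. Differences of probe sets near the background range may be understated.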

Other observations

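Probe sets of 1 gene did not always move together between the unstimulated WT arrays. An *OTULIN* probe set other than the brightest stood at 6.78 in WT replicate 2 and 7.57 in WT replicate 1, a difference of -0.79, while the brightest differed by -0.11. The same dimmer probe set read 7.07 and 7.01 in the TNFRSF1A mutant and 7.60 and 7.52 in the JAK2 mutant, with and without cytokine, and 6.96 in WT with TNF-alpha and 7.58 in WT with IFN-gamma. It thus split the 8 arrays by experiment, with 4 between 6.78 and 7.07 and 4 between 7.52 and 7.60. The 3 *TRAF3* probe sets differed between the WT replicates by -0.39, 0.37 and -0.07.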
